A study of Oryza sativa with 32 samples.

Results

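The MSUv.7 annotation of the rice genome lists 55986 loci, and 3702 of them were Ty3-gypsy retrotransposon loci. A locus was taken as one when its representative gene model was marked as a transposable element (TE) and its description contained the word Ty3-gypsy. The 3702 loci made up 6.61% of all loci and 21.9% of the 16937 TE loci. The remaining 13235 TE loci were the comparison, together with 39049 loci not marked as TE (non-TE loci). The annotation is that of the reference genome of Nipponbare (temperate japonica). It accompanied an RNA-seq study of aluminum (Al) resistance in rice roots, in which Nipponbare was not a sequenced line. In that study Azucena (tropical japonica), IR64 (indica) and a pair of near-isogenic lines labelled AZU[IR64121] and IR64[AZU12.1] were grown for 5 days and then either exposed to 80 μM Al3+ activity for 4 h or kept as control. Each of the 8 groups had 4 biological replicates, which gave 32 libraries of total root RNA. The table analysed here holds positions, strands, descriptions and marks of gene models, with 0 columns of library values, so the roots' response to Al and the depth of the libraries were not analysed here.

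Ty3-gypsy elements are long terminal repeat (LTR) retrotransposons. They are copied through an RNA intermediate and insert the new copy elsewhere, so each copy adds to the genome. Their coding region carries gag, which encodes the particle protein, and pol, which encodes protease, reverse transcriptase, RNase H and integrase. Integrase stands last in pol, whereas in Ty1-copia elements, the other large LTR superfamily of plants, it stands before reverse transcriptase. CACTA elements, the third class used for comparison here, are DNA transposons that move by excision. In grasses, Ty3-gypsy elements are a main component of the heterochromatin around the centromeres, and the centromeric retrotransposons of rice are themselves a lineage of this superfamily. The annotation describes 618 loci as centromere-specific retrotransposons without naming Ty3-gypsy. They were counted among the other TE loci.

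Ty3-gypsy was the largest TE class with a name of its own. CACTA followed with 2089 loci and Ty1-copia with 772 loci, so Ty3-gypsy supplied 49.2% of the 7521 TE loci with a class. The description left 6802 retrotransposon loci and 1497 transposon loci unclassified, and that of a further 1117 TE loci named no class used here. All of these are outside the 7521, and a Ty3-gypsy copy among them would not be counted here. The 3702 loci carried only 2 distinct descriptions, which differ in the word expressed. All of them lay on the 12 chromosomes, and 0 of the 185 loci on the unplaced sequences ChrUn and ChrSy were TE loci. A locus nearly always had a single gene model. Alternative models were annotated at 12 of the 3702 Ty3-gypsy loci (0.324%), against 1.55% of other TE loci and 16.0% of non-TE loci. LOC_Os03g02874, a locus of 1230 bp on chromosome 3 (positions 1133941 to 1135170, minus strand), had the most with 6 gene models. LOC_Os06g45184 followed with 5.

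The loci of 1 annotated genome are a complete list and are related to each other by copying and by position. They are not replicates, so no p-value was computed over them, and each difference is given with its value over the 12 chromosomes. Differences over chromosomes describe the layout of this genome and not variation between plants.

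Ty3-gypsy loci were unevenly shared among the chromosomes. Chromosomes 1, 2 and 3, the longest of the set, were poor in them, with 240, 209 and 211 loci or 5.55, 5.82 and 5.80 loci per Mb. Every other chromosome had at least 10.2 loci per Mb. Chromosome 12, which carries ART1, was the densest with 394 loci and 14.3 per Mb. Chromosome 10 followed with 309 loci and 13.3 per Mb, and chromosome 4 had the largest number, 447 loci at 12.6 per Mb. Chromosomes 5, 6, 7, 8, 9 and 11 had 328, 319, 315, 333, 256 and 341 loci, or between 10.2 and 11.8 per Mb. Chromosome extents were taken to the last annotated position and summed to 373.155 Mb, over which the mean density was 9.92 Ty3-gypsy loci per Mb.

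Other TE loci were also thinner on the first 3 chromosomes, but by less. Chromosomes 1 to 3 covered 31.0% of the extent and held 17.8% of Ty3-gypsy loci and 24.4% of other TE loci. The share of TE loci that were Ty3-gypsy was therefore 16.4%, 16.8% and 17.9% there, against 21.6% to 25.4% on the other 9 chromosomes. It averaged 21.7% ± 3.03 (SD, n = 12 chromosomes). The gene models of Ty3-gypsy loci covered 13.0 Mb, 3.48% of the extent, and made up 23.9% of the summed length of TE loci. Coverage was lowest on chromosome 1 with 1.87% and highest on chromosome 12 with 5.11%.

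**Figure D1:**
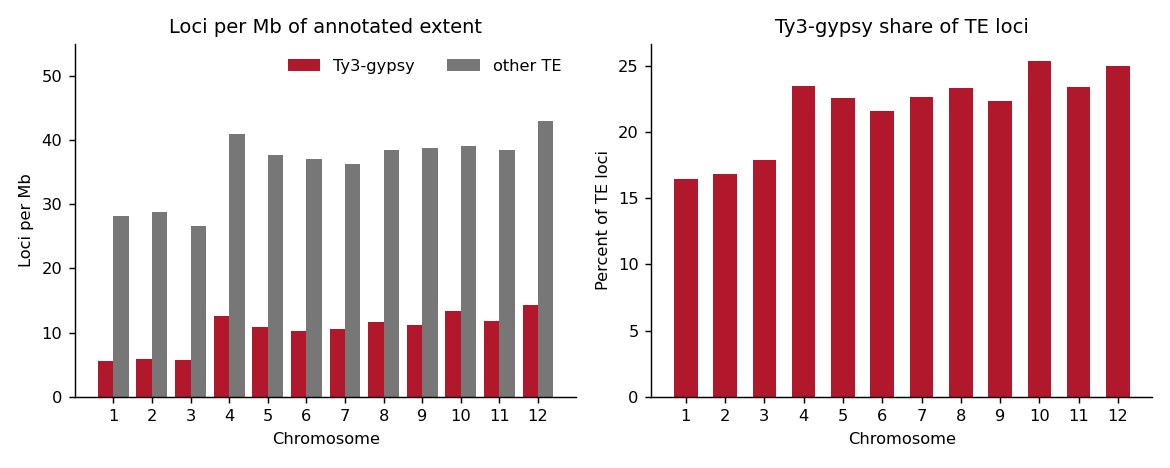
Ty3-gypsy loci by chromosome. Left, loci per Mb of annotated extent for Ty3-gypsy (red) and other TE loci (grey). Right, percent of TE loci that were Ty3-gypsy; chromosomes 1 to 3 sit between 16.4% and 17.9% and the other 9 between 21.6% and 25.4%.

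Along the chromosomes the loci were unevenly spread. Over 368 full bins of 1 Mb the count ranged from 0 to 48, with a median of 6 and quartiles of 3 and 14. The 37 densest bins held 33.3% of the Ty3-gypsy loci in full bins. The same number of bins, chosen for each kind by its own counts, held 19.1% of other TE loci and 14.7% of non-TE loci. Ty3-gypsy had the fewest loci of these kinds. Bins picked by their own counts hold a larger share of a sparser kind through scatter alone, and the size of this part was not tested. The highest count was 48 loci between 10 and 11 Mb of chromosome 4. Next were the bins from 10 to 11 Mb of chromosome 5 with 43 loci and from 19 to 20 Mb of chromosome 3 with 42 loci. The last value stands out within its own chromosome, since chromosome 3 was otherwise poor in these loci and had 5 bins without any.

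The fullest bin of the remaining chromosomes was at 18 to 19 Mb of chromosome 6 (41 loci), 13 to 14 Mb of chromosome 8 (40 loci), 11 to 12 Mb of chromosome 12 (39 loci) and 7 to 8 Mb of chromosome 10 (36 loci). It was at 9 to 10 Mb of chromosome 7 (35 loci), 13 to 14 Mb of chromosome 11 (33 loci), 0 to 1 Mb of chromosome 9 (32 loci) and 19 to 20 Mb of chromosome 1 (31 loci). On chromosome 2 a pair of bins shared the highest count of 19 loci, and the first of them was at 14 to 15 Mb. Chromosome 2 thus had no bin as dense as the fullest bin of any other chromosome.

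These peaks lay near the middle of the loci described as centromere-specific, since the annotation marks no centromere itself. The centre of a chromosome was placed at the median midpoint of its centromere-specific loci, of which there were 34 to 77 per chromosome. Many of these 618 loci lay away from it. Within 2 Mb of the centre there were 2866 other TE loci with them counted and 2542 without. The centre thus rests on scattered retrotransposon loci, and the position of the centromere was not tested. The fullest bin was within 2 Mb of the centre on 7 of 12 chromosomes and within 5 Mb on 12 of 12. Bins without any Ty3-gypsy locus numbered 23 (6.25%). Of these, 21 lay over 10 Mb from the centre, and the nearest was 8.28 Mb away. Those 23 bins were not free of TE loci, since they held 8 to 31 other TE loci each (median 24).

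**Figure D2:**
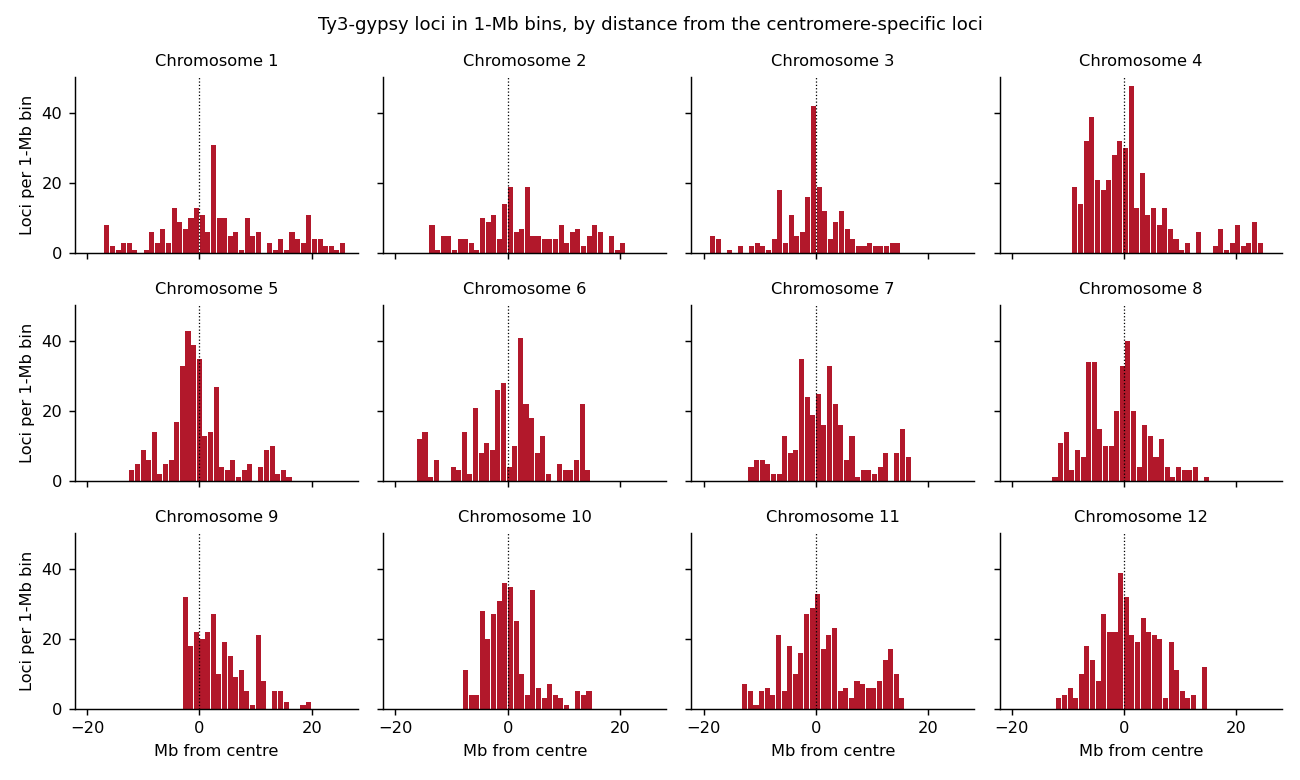
Ty3-gypsy loci per full 1-Mb bin on each of the 12 chromosomes, by distance of the bin's middle from the centre (dotted line, median position of centromere-specific loci). The fullest bin of each chromosome lies within 5 Mb of the line, with up to 48 loci on chromosome 4 and 19 on chromosome 2.

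Ty3-gypsy loci lay closer to the centre than Ty1-copia, CACTA and non-TE loci did. The centromere-specific loci define the centre and were left out of the other TE loci here unless stated. The median distance of Ty3-gypsy loci from the centre was 3.72 Mb, against 5.65 Mb for other TE loci without the centromere-specific ones and 9.76 Mb for non-TE loci. The Ty3-gypsy median was lower than that of other TE loci on 12 of 12 chromosomes. Ty1-copia, CACTA and unclassified retrotransposon loci had medians of 5.04, 5.41 and 5.16 Mb. Within 2 Mb of the centre lay 1119 Ty3-gypsy loci (30.2%), against 20.1% of other TE loci without the centromere-specific ones. With those included, the share of other TE loci was 21.7%. It was 24.4% for unclassified retrotransposons, 19.6% for Ty1-copia, 15.4% for CACTA and 7.51% for non-TE loci. The share was higher for Ty3-gypsy on 11 of 12 chromosomes, and the exception was chromosome 1 with 16.7% of Ty3-gypsy and 17.5% of other TE loci. The contrast was widest in value on chromosomes 3 and 5, where 40.8% and 35.4% of Ty3-gypsy loci lay in this window, against 24.2% and 19.6% of other TE loci.

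Density fell with each step away from the centre. Ty3-gypsy had 27.3 loci per Mb in the first megabase on either side, 19.3 from 1 to 2 Mb, 16.1 from 2 to 5 Mb, 7.65 from 5 to 10 Mb and 4.19 beyond 10 Mb. Other TE loci without the centromere-specific ones had 53.6, 52.3, 45.9, 33.1 and 22.0 per Mb over the same bands, a flatter profile. Among them, unclassified retrotransposons also fell at each step, with 38.8, 30.5, 23.6, 16.8 and 11.2 per Mb. A peak at the centre was thus not particular to Ty3-gypsy. CACTA loci did not peak at the centre. They had 4.25 per Mb in the first band, 9.17 and 9.42 in the next pair of bands, 6.49 from 5 to 10 Mb and 2.65 beyond. Ty1-copia varied least near the centre, with 2.92, 3.38 and 3.30 per Mb in the first 3 bands, then 1.89 and 1.25. Non-TE loci ran the other way, with 52.5 per Mb in the first band and 132 per Mb beyond 10 Mb.

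Across the 368 bins the counts of Ty3-gypsy and non-TE loci were opposed, with Pearson's r = -0.79 and Spearman's rho = -0.76. Within single chromosomes r lay between -0.85 and -0.60. A bin has a fixed length that all loci share, so a bin full of one kind has less room for the other, and neighbouring bins are not independent. Other TE loci gave r = -0.87 with non-TE loci over the same bins, so the opposition was not larger in value for Ty3-gypsy. Ty3-gypsy and other TE counts rose together (r = 0.74). The 37 densest Ty3-gypsy bins had a median of 53 non-TE loci, against 105 over all full bins and 135 in the bins without Ty3-gypsy.

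**Figure D3:**
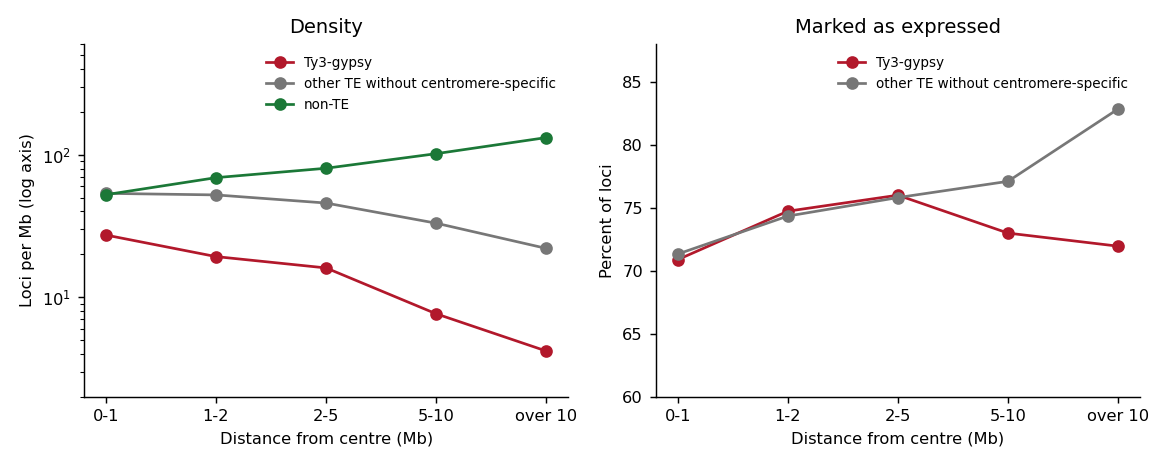
Left, loci per Mb (log axis) in 5 bands of distance from the centre for Ty3-gypsy (red), other TE loci without the centromere-specific ones (grey) and non-TE loci (green). Right, percent of loci marked as expressed in the same bands, on an axis that does not start at 0; Ty3-gypsy and other TE lie together up to 5 Mb, and beyond 10 Mb the values are 72.0% and 82.8%.

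The gene models of Ty3-gypsy loci were spread over a wide range of lengths. Length here runs from the first to the last annotated base of the representative model, introns included, and it does not cover the LTRs unless they are part of the model. It ran from 189 bp at LOC_Os02g29990 (chromosome 2, positions 17822857 to 17823045) to 17308 bp at LOC_Os09g40014 (chromosome 9, positions 22958550 to 22975857). Neither of these extremes was marked as expressed. The quartiles were 1547 and 5371 bp around a median of 3013.5 bp, against a median of 2798 bp for other TE loci and 2170 bp for non-TE loci. The difference from other TE loci was 215.5 bp, and 136.5 bp with the centromere-specific loci left out of the comparison. With all other TE loci it was positive on 11 of 12 chromosomes, with a mean of 236 ± 189 bp (SD, n = 12), and negative on chromosome 3 (-109 bp).

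This order depended on the class used for comparison. Ty1-copia loci had a median of 3747 bp and CACTA loci of 3259 bp, both above Ty3-gypsy. Unclassified retrotransposons had 2682.5 bp and centromere-specific loci 1385.5 bp. The medians hide different shapes. CACTA models peaked sharply, with 24.8% of them between 3 and 3.5 kb, and Ty1-copia models between 3.5 and 4.5 kb, where the successive 0.5-kb classes held 18.7% and 17.5%. Ty3-gypsy had no such single peak. It had 11.1% of its loci between 0.5 and 1 kb, 11.0% between 2.5 and 3 kb and a further rise between 6 and 7 kb, where the successive classes held 6.51% and 6.70%. Ty1-copia had 2.33% and 1.30% there, and CACTA 1.53% in each. Models of 6 kb or longer made up 18.2% of Ty3-gypsy loci and 11.0% of other TE loci.

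Many loci had exactly the same length as another Ty3-gypsy locus, but this was not particular to the class. The 3702 loci had 2477 distinct lengths, and 1869 loci (50.5%) shared theirs with at least 1 other Ty3-gypsy locus. The commonest was 6111 bp, found at 26 loci on 10 chromosomes, followed by 1350 bp at 25 loci on 9 chromosomes, 6096 bp at 21 loci and 4422 bp at 20 loci on 10 chromosomes each. No other TE locus was 6111 or 6096 bp long. Lengths held by 5 or more loci of a kind covered 13.1% of Ty3-gypsy, 30.4% of other TE and 74.6% of non-TE loci. A kind with more loci shares lengths more often by number alone. Length alone does not show that the loci are copies of one element, and their sequences were not compared here. All of the 10 commonest lengths other than 2942 bp were multiples of 3. Over all loci the share of such lengths was 47.7% for Ty3-gypsy, 45.1% for other TE and 41.6% for non-TE loci.

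The annotation marked 2724 of the 3702 Ty3-gypsy loci as expressed (73.6%). This mark belongs to the annotation and does not come from the root libraries, and it always goes with the word expressed in the description. The share was 76.4% for other TE loci and 93.5% for non-TE loci. The difference of Ty3-gypsy from other TE loci was thus -2.82 percentage points. Over chromosomes the difference averaged -3.14 ± 3.30 points (SD, n = 12), so its mean was smaller than its spread. It was negative on 10 of 12 chromosomes and largest on chromosome 1, where 67.9% of Ty3-gypsy and 77.9% of other TE loci were marked. Chromosome 4 ran the other way with 75.8% of Ty3-gypsy and 73.5% of other TE loci, and on chromosome 12 the shares were nearly equal at 75.4% and 75.3%.

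The mark followed length closely. Of Ty3-gypsy loci under 1 kb 40.5% were marked, of those from 1 to 2 kb 47.2%, from 2 to 4 kb 79.4%, from 4 to 6 kb 92.3%, and of those of 6 kb or more 96.6%. Other TE loci had 46.0%, 61.9%, 83.8%, 94.1% and 98.7% over the same classes. Ty3-gypsy was lower than these pooled loci in each length class, on 8 to 11 of the 12 chromosomes, and the gap was widest from 1 to 2 kb. Single classes did not all lie above it. Under 1 kb 35.7% of Ty1-copia and 29.5% of CACTA loci were marked, both below Ty3-gypsy, as were CACTA loci from 4 to 6 kb (90.0%) and Ty1-copia loci of 6 kb or more (95.3%). Marked Ty3-gypsy loci had a median length of 3900.5 bp and unmarked ones of 1350 bp. Among other TE loci the medians were 3236 and 1273 bp.

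Loci of some exact lengths all carried the same mark. All 26 loci of 6111 bp were marked, as were all 21 of 6096 bp, all 20 of 4422 bp, all 16 of 4551 bp and all 15 of 4413 bp. Their length classes were nearly all marked too, 96.6% at 6 kb or more and 92.3% from 4 to 6 kb. Of the 25 loci of 1350 bp only 3 were marked, and of the 16 loci of 324 bp only 1. The shares of their length classes were 47.2% from 1 to 2 kb and 40.5% under 1 kb. The 13 loci of 4575 bp went against the trend with length. They lay on 6 chromosomes, and 0 of them were marked as expressed, although 92.3% of Ty3-gypsy loci between 4 and 6 kb were. The first of them in locus order is LOC_Os01g33250 (chromosome 1, positions 18311485 to 18316059). These lengths were singled out after their values were seen. Of the 57 lengths shared by 5 or more Ty3-gypsy loci, 24 had every locus marked and 1 had none, so 43.9% were of one kind throughout. The share was 24.6% of 525 such lengths among other TE loci and 67.1% of 3252 among non-TE loci. Of all loci 73.6% of Ty3-gypsy, 76.4% of other TE and 93.5% of non-TE loci were marked, so these shares are not directly comparable.

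**Figure D4:**
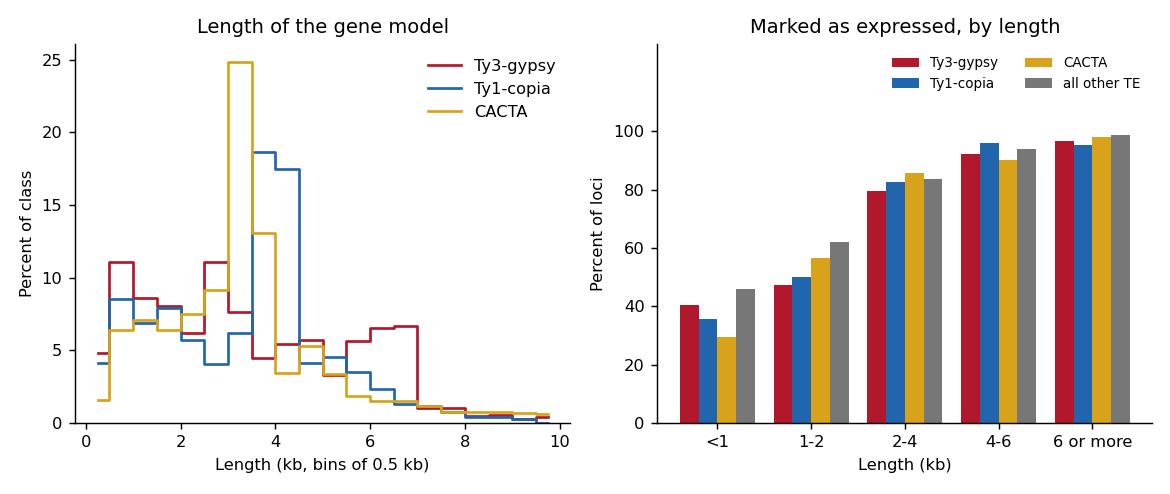
Left, percent of each class by length of the representative gene model in 0.5-kb steps up to 10 kb, for Ty3-gypsy (red), Ty1-copia (blue) and CACTA (yellow). Right, percent of loci marked as expressed in 5 length classes, for Ty3-gypsy, Ty1-copia, CACTA and all other TE loci; Ty3-gypsy runs from 40.5% under 1 kb to 96.6% at 6 kb or more.

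The difference in the mark was larger in value in the chromosome arms. Up to 5 Mb from the centre 74.2% of Ty3-gypsy loci were marked, against 74.5% of other TE loci without the centromere-specific ones, and Ty3-gypsy was lower on 6 of 12 chromosomes. From 5 to 10 Mb the shares were 73.0% and 77.1%. Beyond 10 Mb they were 72.0% of 599 Ty3-gypsy loci and 82.8% of 3147 other TE loci, a difference of -10.9 points. There Ty3-gypsy was lower on 10 of 12 chromosomes. The exceptions were chromosome 3, with 90.0% of 30 Ty3-gypsy loci and 86.7% of other TE loci, and chromosome 12, with 94.1% of 34 Ty3-gypsy loci and 85.0% of other TE loci. The median lengths in this outer band were close, 3033 bp for Ty3-gypsy and 3065 bp for other TE loci.

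By distance to genes the shares crossed. Here the other TE loci include the centromere-specific ones, of which 57.3% were marked and 34.3% lay over 10 kb from a non-TE locus. Of Ty3-gypsy loci less than 2 kb from a non-TE locus 74.1% were marked, against 82.6% of other TE loci as near. From 2 to 10 kb the shares were 75.6% and 77.2%. At 10 kb or more the shares were 71.4% and 67.2%, so there Ty3-gypsy was the higher. Over these 3 classes the Ty3-gypsy share thus lay between 71.4% and 75.6%, and that of other TE loci between 67.2% and 82.6%. Other TE loci far from genes were also shorter, with a median of 2225 bp at 10 kb or more, against 2957.5 bp for Ty3-gypsy. The parts of length and of the centromere-specific loci in this contrast were not tested.

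Both strands were used about equally. The plus strand carried 1831 Ty3-gypsy loci and the minus strand 1871, so 49.5% were on the plus strand, against 49.1% of other TE loci. The plus share was lowest on chromosome 7 (44.4%) and highest on chromosome 8 (54.7%). The difference from other TE loci, 0.39 percentage points, became -0.30 points without chromosome 8 and gives no direction.

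Ty3-gypsy loci stood farther from genes than other TE loci. The distance from the edge of a locus to the edge of the nearest non-TE locus had a median of 8567.5 bp, with quartiles of 4086 and 17489 bp, against a median of 4258 bp for other TE loci. The ratio was 2.01, and it ran from 1.56 to 2.47 over the chromosomes. The difference was positive on 12 of 12 chromosomes, with a mean of 4291 ± 1407 bp (SD, n = 12). Medians were 3171.5 bp for Ty1-copia, 4631 bp for CACTA, 5081 bp for unclassified retrotransposons and 6324 bp for centromere-specific loci. Only 11.1% of Ty3-gypsy loci had a non-TE locus within 2 kb, against 26.9% of other TE loci. Conversely, 44.4% of Ty3-gypsy and 22.5% of other TE loci were more than 10 kb from one.

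The difference was present at each distance from the centre. In the 5 bands of distance from the centre the Ty3-gypsy medians were 10979.5, 9488, 9306, 8307 and 5828 bp from the centre outwards. Other TE loci without the centromere-specific ones had 7694, 5082, 4922.5, 3921.5 and 2776 bp. Ty3-gypsy was farther from genes in each band, on 11 of 12 chromosomes from 1 to 2 Mb and on 12 of 12 in the other 4 bands.

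Few Ty3-gypsy loci lay inside the stretch just upstream of a gene. A window of 2 kb before the start of each of 38864 non-TE loci on the chromosomes held a Ty3-gypsy locus in 202 cases (0.520%). That is 5.46 windows per 100 Ty3-gypsy loci, against 15.1 per 100 other TE loci, 16.5 per 100 Ty1-copia loci and 13.0 per 100 CACTA loci. Seen from the genes, the nearest Ty3-gypsy locus was a median of 101.6 kb away, with quartiles of 38.5 and 241.8 kb. Overlap with a non-TE locus occurred at 3 Ty3-gypsy loci, against 70 other TE loci, and in each of the 3 the partner was on the opposite strand. LOC_Os03g42950 shared 393 bp with a locus described as a conserved hypothetical protein. LOC_Os05g26260 shared 615 bp with LOC_Os05g26250, described as a precursor of prolamin, a seed storage protein. LOC_Os09g13430 shared 142 bp with a locus described only as an expressed protein.

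The Ty3-gypsy locus farthest from a non-TE locus was LOC_Os11g21830, a marked locus of 5463 bp on chromosome 11 (positions 12251517 to 12256979), at 212037 bp and 0.91 Mb from the centre. An unclassified retrotransposon reached 219843 bp. The stretch of 470.6 kb between the flanking non-TE loci, LOC_Os11g20790 and LOC_Os11g21804, held just 4 annotated loci, all TE. Of these, 2 were Ty3-gypsy and 2 unclassified retrotransposons.

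Ty3-gypsy loci were mostly found beside one another. In the order of all loci along the chromosomes, 2440 of the 3702 (65.9%) had another Ty3-gypsy locus as a direct neighbour. Of other TE loci 16.6% had a Ty3-gypsy neighbour, and of non-TE loci 4.71%. The difference from other TE loci was 49.3 percentage points, between 39.6 points on chromosome 3 and 56.5 points on chromosome 8. It was not limited to the centres, since beyond 2 Mb from them the shares were 64.9% and 14.1%. A class with more loci meets itself more often by number alone, and Ty3-gypsy supplied 6.63% of the loci on the chromosomes. CACTA, with 3.74% of the loci, had a neighbour of its own class at 63.8% of its loci, close to Ty3-gypsy. Ty1-copia reached 28.0% and unclassified retrotransposons, with 12.2% of the loci, 57.1%. Of the 7401 sides of Ty3-gypsy loci with a neighbour, 41.1% faced another Ty3-gypsy locus, 25.7% a non-TE locus and 21.1% an unclassified retrotransposon.

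The clusters were short. Single loci numbered 1262, runs of 2 consecutive loci 587 and runs of 3 193. The longest runs had 13 loci and occurred in 2 places. One was on chromosome 6 from LOC_Os06g48360 to LOC_Os06g48480 (positions 29242624 to 29329058, 86435 bp), with 3 loci on the plus and 10 on the minus strand, and 7 of the 13 were marked as expressed. It lay 13.1 Mb from the centre, far out in the arm. The other was on chromosome 8 from LOC_Os08g11900 to LOC_Os08g12020 (positions 6974984 to 7072109, 97126 bp), with 7 loci on the plus and 6 on the minus strand, and 12 of the 13 were marked. Its last member was the second longest Ty3-gypsy locus of the genome (17259 bp).

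Neighbours of this class shared a strand about as often as not, unlike those of CACTA and Ty1-copia. In 1522 pairs of adjacent Ty3-gypsy loci, 52.4% were on the same strand. The share was 92.3% in 750 CACTA pairs and 84.5% in 116 Ty1-copia pairs. Among non-TE pairs it was 51.6%. The Ty3-gypsy share lay between 41.0% and 61.2% over chromosomes and was below the CACTA and the Ty1-copia share on 12 of 12 chromosomes each, although Ty1-copia had as few as 5 pairs on a chromosome. Pairs of unclassified retrotransposons were on the same strand in 42.9% of cases. Adjacent Ty3-gypsy loci were close together, with a median gap of 1247 bp and 45.8% of gaps under 1 kb, against a median gap of 1974.5 bp for CACTA pairs and 1281 bp for Ty1-copia pairs. The same-strand share was 50.6% in the Ty3-gypsy pairs under 1 kb apart and 53.8% in the others.

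**Figure D5:**
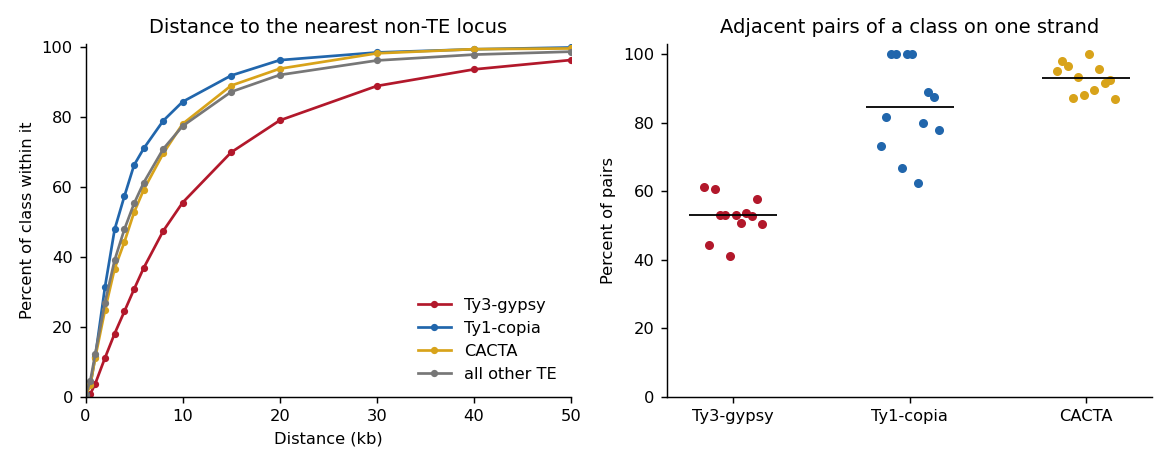
Left, percent of loci with a non-TE locus within the distance on the x axis (kb), for Ty3-gypsy (red), Ty1-copia (blue), CACTA (yellow) and all other TE loci (grey). Right, percent of adjacent pairs of one class on the same strand, with 1 point per chromosome and the median as a line; the Ty3-gypsy points run from 41.0% to 61.2% and the CACTA points from 87.1% to 100%.

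A list of 7 genes of Al resistance that the study names was set against this map. OsCDT3, which the study also names, was not on the list. ART1 (LOC_Os12g07280), the zinc-finger transcription factor that controls Al-responsive genes, had its nearest Ty3-gypsy locus 16.1 kb upstream. This was LOC_Os12g07240, a model of 753 bp on the minus strand (chromosome 12, positions 3563174 to 3563926) marked as expressed, and it was the only one within 100 kb. Within 1 Mb of ART1 there were 8 Ty3-gypsy loci, and 8 of the 8 were marked. Over all of chromosome 12 75.4% of Ty3-gypsy loci were marked, and 8 loci are too few to set apart from that share. The nearest other TE locus to ART1 was farther away than LOC_Os12g07240, at 52.0 kb, and belonged to the Pong class of DNA transposons. This order also held at STAR1, with another TE locus at 19.9 kb, but at none of the remaining genes.

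STAR1 and STAR2 encode the nucleotide-binding and the membrane part of an ABC transporter needed for Al resistance. STAR1 (LOC_Os06g48060) had LOC_Os06g48070, of 3587 bp, 10.1 kb upstream, the shortest distance among the 7 genes. It had 6 Ty3-gypsy loci within 100 kb and 28 within 1 Mb, and the run of 13 loci on chromosome 6 lay 166.6 kb from it. STAR2 (LOC_Os05g02750) had LOC_Os05g02860, of 5889 bp, 43.6 kb downstream. ALS1 (LOC_Os03g54790), a half-size ABC transporter of the vacuolar membrane, had LOC_Os03g54950 81.2 kb downstream.

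Nrat1 (LOC_Os02g03900), the plasma membrane transporter that takes up Al, had LOC_Os02g04280, one of the unmarked 324-bp loci, 227.2 kb upstream. The citrate transporter gene OsFRDL4 (LOC_Os01g69010) was the farthest, with LOC_Os01g68410 336.9 kb upstream. Its relative OsFRDL2 (LOC_Os10g13940) lies 0.43 Mb from the centre of chromosome 10. It had LOC_Os10g13980, one of the 6096-bp loci, 21.1 kb downstream and 66 Ty3-gypsy loci within 1 Mb. At STAR2, ALS1, Nrat1, OsFRDL4 and OsFRDL2 an unclassified retrotransposon was nearer than any Ty3-gypsy locus, at 14.4, 3.2, 105.6, 0.67 and 2.84 kb. The median over the 7 genes was 43.6 kb, inside the quartiles of all non-TE loci. None of the 7 had a Ty3-gypsy locus within 2 kb, but few genes do. Of all non-TE loci only 7.30% had one even within 10 kb. These are positions in 1 annotated genome, that of Nipponbare, and whether Azucena and IR64 carry the same insertions was not analysed here.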

How the data were processed

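Total root RNA of 32 samples was sequenced. The authors trimmed the reads with Trimmomatic, removed ribosomal reads with Bowtie and aligned the rest with HISAT to MSUv.7. The deposited table is the MSUv.7 annotation: per gene model, its chromosome, start, stop, strand, description and marks, with 0 columns of library values. Its positions are in bp and 1-based. No count or expression test was therefore run, no sample entered a comparison, and no sequence was read, since no MSUv.7 genome was used here.

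A locus was represented by its representative gene model. TE classes were assigned by the first class name in the description. A locus belonged to the bin of its midpoint, and last bins cut short were left out. Distances ran between nearest edges, with 0 for overlap. The centre was the median midpoint of centromere-specific loci. Loci named are the extremes, longest runs, fullest bins, loci with most gene models and those nearest to Al resistance genes. Exceptions, named after their values were seen, are the second longest locus, the overlapping loci, loci of shared length and the loci that flank the 470.6-kb stretch. Members, classes, gene lists and rules were chosen with earlier results of these data known. Code for distances, runs and classes was tested on simulated data. Alternatives covered the comparison class, bin size, edges, neighbours and each chromosome left out. Python 3.11.15, numpy 2.4.6, pandas 2.3.3 and matplotlib 3.10.9 were used.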

Additional observations from a re-analysis of the deposited data

How the results depend on the processing

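Of 97 alternatives over the results above, 89 kept the value's direction and moved by less than 1 SD over chromosomes (over genes for the Al resistance genes, and 1.5 times for the number of loci), which is wide for some differences. Of the 97, 60 left out 1 chromosome, and 59 of these were among the 89. Each kept most of the loci and could move a value little. Alternatives that used all gene models of a locus gave identical values. Among the 89, the expressed mark differed by -5.59 points against CACTA (-2.82 against all other TE loci) and the plus-strand share by 3.22 points against Ty1-copia (0.39). Length differed by 136.5 bp without centromere-specific loci (215.5). The share near the centre differed by 13.4 points in a 5-Mb window (8.57 in 2 Mb), with centromere-specific loci counted as other TE. Without them the 2-Mb value was 10.1 points. The share of TE loci that are Ty3-gypsy was 49.2% among classified TE loci only and 25.5% with centromere-specific loci counted too, against 21.9%. The correlation of Ty3-gypsy and non-TE counts across bins was -0.69 with the bins cut short at chromosome ends kept, against -0.79. The excess of Ty3-gypsy neighbours over other TE loci was 44.0 points in the order of TE loci only, against 49.3. The difference in median length reversed with the comparison class, to -733.5 bp against Ty1-copia, -245.5 bp against CACTA and -62.5 bp against classified TE loci, and the plus-strand difference reversed to -0.30 points without chromosome 8. With each chromosome left out in turn, the difference in distance to genes lay between 3976 and 4537 bp, in length between 193 and 256.5 bp, in the expressed mark between -3.49 and -2.27 points and in the share within 2 Mb of the centre between 7.98 and 9.26 points. The last range also counts centromere-specific loci as other TE. Of these alternatives 8 were chosen after the data were seen. No paired analysis was possible because the table holds no values of the replicates. The class of a locus rests on its description, and copies left unclassified or described as centromere-specific are not counted as Ty3-gypsy. Lengths are those of gene models, not of whole elements.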

Other observations

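The surroundings of STAR1 were rich in Ty3-gypsy loci for a place so far from a centre. STAR1 lies 12.9 Mb from the centre of chromosome 6. Among 18875 non-TE loci over 10 Mb from a centre, the median number of Ty3-gypsy loci within 1 Mb was 6, with quartiles of 4 and 9, and 2.03% had 28 or more, as STAR1 did. Those loci share neighbours, so this is a description of position only. The bin from 29 to 30 Mb of chromosome 6, which holds STAR1 and the run of 13, had 22 Ty3-gypsy and 19 other TE loci, the highest Ty3-gypsy count of 138 bins over 10 Mb from a centre (median 3). The next were the bins from 13 to 14 Mb of chromosome 9 with 21 and from 26 to 27 Mb of chromosome 11 with 17 Ty3-gypsy loci.

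Around ART1, 2 of the 8 Ty3-gypsy loci within 1 Mb lay upstream and 6 downstream, the farthest of them LOC_Os12g08620 at 796.0 kb. Their lengths ran from 753 to 6599 bp.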
